A study of Mus musculus with 6 samples.

Results

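The Hox cluster genes are the homeobox transcription factor genes that lie in 4 tight groups, HoxA on chromosome 6, HoxB on chromosome 11, HoxC on chromosome 15 and HoxD on chromosome 2. Members were all rows of the expression table whose symbol is Hox, then a, b, c or d, then digits only. This gave 39 of 23228 genes, with 11 in HoxA, 10 in HoxB, 9 in HoxC and 9 in HoxD. RNA sequencing was done on LSK cells, a bone marrow fraction without lineage markers but with Sca-1 and c-Kit on the surface, which is enriched for mouse blood stem cells and early progenitors. The donor cells of all libraries were wild type and Ly5.1+, and were sorted again 8 weeks after transplantation into Ly5.2+ recipients. The recipients were ICAM-1-/- (3 libraries) or wild type, called WT here (3 libraries). The strain is given as C57BL/6. The labels name the genotype of the recipient, so the sequenced cells of both groups carried intact Icam1, and recipient ages are not stated. The study asked how a niche without ICAM-1, an adhesion molecule that binds leukocyte integrins, bears on stem cell quiescence and repopulation.

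Hox proteins bind DNA through a homeodomain and specify position along the body axis in the embryo. Genes of a cluster lie in the order of their paralogue numbers. In the adult, blood stem cells and early progenitors transcribe mainly genes of the HoxA and HoxB clusters, which are shut down as cells mature. Hox proteins bind many of their sites together with TALE homeodomain partners, the MEIS, PBX and PKNOX proteins, and Hoxa9 with Meis1 is a known driver of mouse myeloid leukemia. Trithorax-group complexes around the MLL1 methyltransferase keep Hox genes on, and Polycomb complexes keep them off.

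The values are FPKM, fragments scaled for transcript length and library size, as the authors deposited them, and the read depth behind them is unknown. The libraries were uneven: 44.1%, 44.4% and 59.9% of all genes were above 0 in ICAM-1-/- replicates 1, 2 and 3, and 28.04%, 56.2% and 54.7% in WT replicates 1, 2 and 3. Macrophage markers were highest in both replicate 1 libraries. Of 7 such markers, 6 were above 0 in every library and Marco was at 0 in all, and their summed level was 732, 19.2 and 100.3 FPKM in ICAM-1-/- replicates 1 to 3 and 1740.0, 71.8 and 20.2 FPKM in WT replicates 1 to 3. The 12 LSK and stem cell markers summed to 216, 347 and 571 FPKM in ICAM-1-/- and to 171, 255 and 352 FPKM in WT replicates 1 to 3. Of those 12 markers, 10, 12 and 12 were above 0 in ICAM-1-/- and 7, 12 and 12 in WT replicates 1 to 3, with Ly6a, which encodes Sca-1, listed at 0 in WT replicate 1. The 10 stromal and endothelial markers summed to 11.8, 1.73 and 9.31 FPKM in ICAM-1-/- and to 42.2, 5.34 and 5.62 FPKM in WT replicates 1 to 3. Their sum too was highest in replicate 1 of each group, and the matrix genes Dcn and Lum were at 0 in all libraries. The part of other cells in the Hox values was not tested.

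Hox transcripts were few, low and nearly all from the HoxA and HoxB clusters. Of 39 members, 18 were above 0 in at least 1 library and 21 were listed at 0 in all 6. In HoxA 8 of 11 genes and in HoxB 8 of 10 were above 0 somewhere, against 1 of 9 HoxC genes and 1 of 9 HoxD genes. Hoxc6 stood at 0.127 FPKM in ICAM-1-/- replicate 3 and Hoxd1 at 0.265 FPKM in ICAM-1-/- replicate 2, and no other HoxC or HoxD value was above 0. Among the members at 0 throughout were Hoxa4, Hoxa11, Hoxb6, Hoxb13, all HoxC genes but Hoxc6 and all HoxD genes but Hoxd1. The highest of all Hox values was 10.5 FPKM. In bulk RNA, fewer cells that transcribe a gene and less RNA per cell cannot be told apart.

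The number of Hox members above 0 followed the libraries. It was 4, 8 and 12 of 39 in ICAM-1-/- replicates 1, 2 and 3, and 0, 9 and 12 of 39 in WT replicates 1, 2 and 3. WT replicate 1, in which no Hox gene was detected, was also the library with the fewest genes above 0. The summed level of the 39 members was 5.64, 8.20 and 20.2 FPKM in ICAM-1-/- replicates 1 to 3, and 0, 25.8 and 10.98 FPKM in WT replicates 1 to 3. The lowest and the highest sum were thus both WT libraries, and the ICAM-1-/- sums lay between them. Among 2071 genes with a mean of 1 to 3 FPKM, the range that holds the means of the 5 tested Hox genes, 26.7%, 31.2% and 2.22% were listed at 0 in ICAM-1-/- replicates 1 to 3 and 70.3%, 4.06% and 5.65% in WT replicates 1 to 3. A Hox value of 0 is therefore reported as listed at 0 and not as silence.

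**Figure D1:**
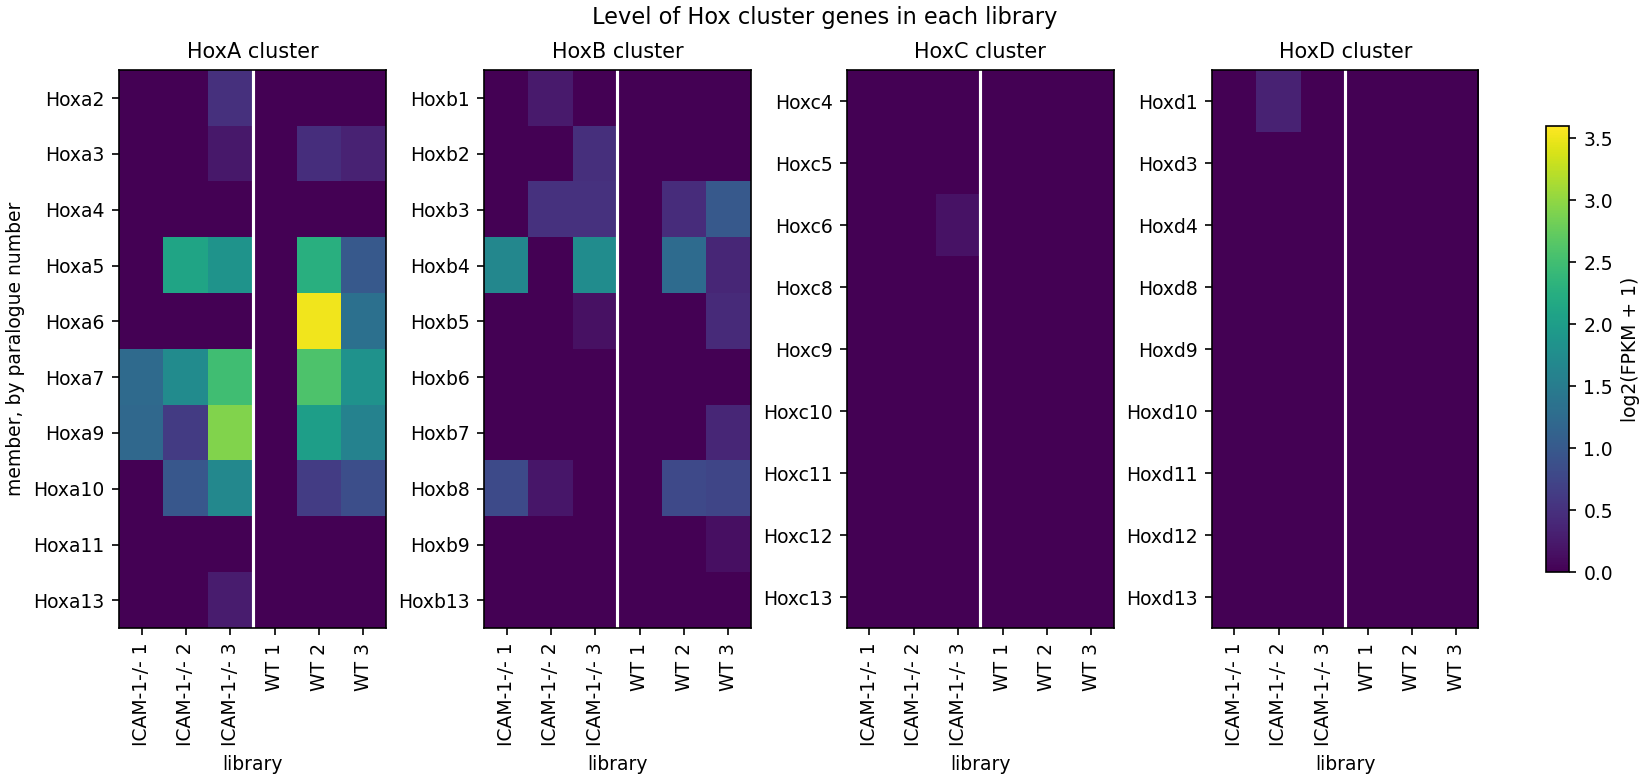
Level of the Hox members, as log2(FPKM + 1), in the 6 libraries, with 1 panel per cluster, members ordered by paralogue number down the page and the white line between ICAM-1-/- (left) and WT (right) libraries. Signal lies mainly in a run of HoxA genes, Hoxa5 to Hoxa10, with Hoxa6 at 0 in every ICAM-1-/- column, and in Hoxb3, Hoxb4 and Hoxb8. The WT replicate 1 column is at 0 throughout, and the HoxC and HoxD panels hold 1 faint cell each.

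Within the HoxA cluster the signal lay in a run of neighbours. Hoxa5, Hoxa6, Hoxa7, Hoxa9 and Hoxa10 follow one another on the chromosome, and together they made up 47.8%, 87.1% and 79.0% of the summed Hox level in ICAM-1-/- replicates 1 to 3 and 88.8% and 72.4% in WT replicates 2 and 3. The run was not unbroken, since Hoxa6 was listed at 0 in every ICAM-1-/- library, while it made up 40.5% of the sum in WT replicate 2. In ICAM-1-/- replicate 1 only Hoxa7 and Hoxa9 of these genes were above 0. On either side of this run, Hoxa4 and Hoxa11 were listed at 0 in every library. Hoxa13 and Hoxa2 were above 0 in ICAM-1-/- replicate 3 alone, at 0.210 and 0.412 FPKM. All HoxA genes together held 47.8%, 87.1% and 83.0% of the sum in ICAM-1-/- replicates 1 to 3 and 90.3% and 74.9% in WT replicates 2 and 3. ICAM-1-/- replicate 1 was the library in which HoxB held the larger share, 52.2%, from 2 genes. These are shares of FPKM within a library, which do not depend on its scaling.

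Hoxa7, a middle-cluster gene that is switched on together with Hoxa9 and Meis1 in some mouse leukemias, had the highest median of all members, 2.45 FPKM over the 6 libraries. It reached 1.37, 2.32 and 4.66 FPKM across ICAM-1-/- replicates 1 to 3, and 0, 5.06 and 2.58 FPKM in WT replicates 1 to 3. The highest and the lowest value were both from WT libraries, so the groups overlapped. Hoxa9, whose loss reduces stem cell repopulation in mice, had 1.33, 0.539 and 6.56 FPKM in ICAM-1-/- libraries 1 to 3 and 0, 3.05 and 2.02 FPKM in WT replicates 1 to 3. Here ICAM-1-/- replicate 3 stood highest and the WT values of replicates 2 and 3 lay between those of ICAM-1-/- replicates 1 and 3. These were the 2 members above 0 in 5 of 6 libraries. The order of the medians, with Hoxa5 at 1.80 FPKM and Hoxa9 at 1.67 FPKM behind Hoxa7, is not separated by the spread, since the ranges of all 3 genes start at 0 and overlap.

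Hoxa5, which favours myeloid over erythroid differentiation when overexpressed in human progenitors, had 0, 3.30 and 2.59 FPKM in ICAM-1-/- libraries 1 to 3 and 0, 3.82 and 1.01 FPKM in WT replicates 1 to 3. Both replicate 1 libraries were listed at 0 and the other values of the groups overlapped. Hoxa10, linked in mice to stem cell number and megakaryocyte progenitors, was at 0, 0.977 and 2.19 FPKM in ICAM-1-/- and at 0, 0.564 and 0.829 FPKM in WT replicates 1 to 3. The groups overlapped for Hoxa10 too, and its mean of 0.760 FPKM over the 6 libraries was under the minimum of 1 FPKM for testing over all of them.

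Hoxa6 differed most between libraries. It was listed at 0 in all 3 ICAM-1-/- libraries while its WT values were 0, 10.5 and 1.52 FPKM in replicates 1 to 3. The value in WT replicate 2 was the highest of any Hox gene and made up 40.5% of the Hox sum of that library. The groups overlap at 0 through WT replicate 1. Hoxa6 also has the shortest coding transcript of the 39 members in GENCODE M21, at 874 bases, against 3226 for Hoxa9 and 2009 for Hoxa7, so each of its fragments weighs more in FPKM. Its locus lies within the annotated span of a long Hoxa3 transcript and opposite the antisense gene Hoxaas3. Hoxa5 is overlapped by the same genes. Counting by strand is not stated, so reads of such overlapping transcripts cannot be assigned to one of them here. The row for Hoxaas3 was above 0 in 1 library, ICAM-1-/- replicate 2, at 1.58 FPKM, where Hoxa6 was listed at 0.

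**Figure D2:**
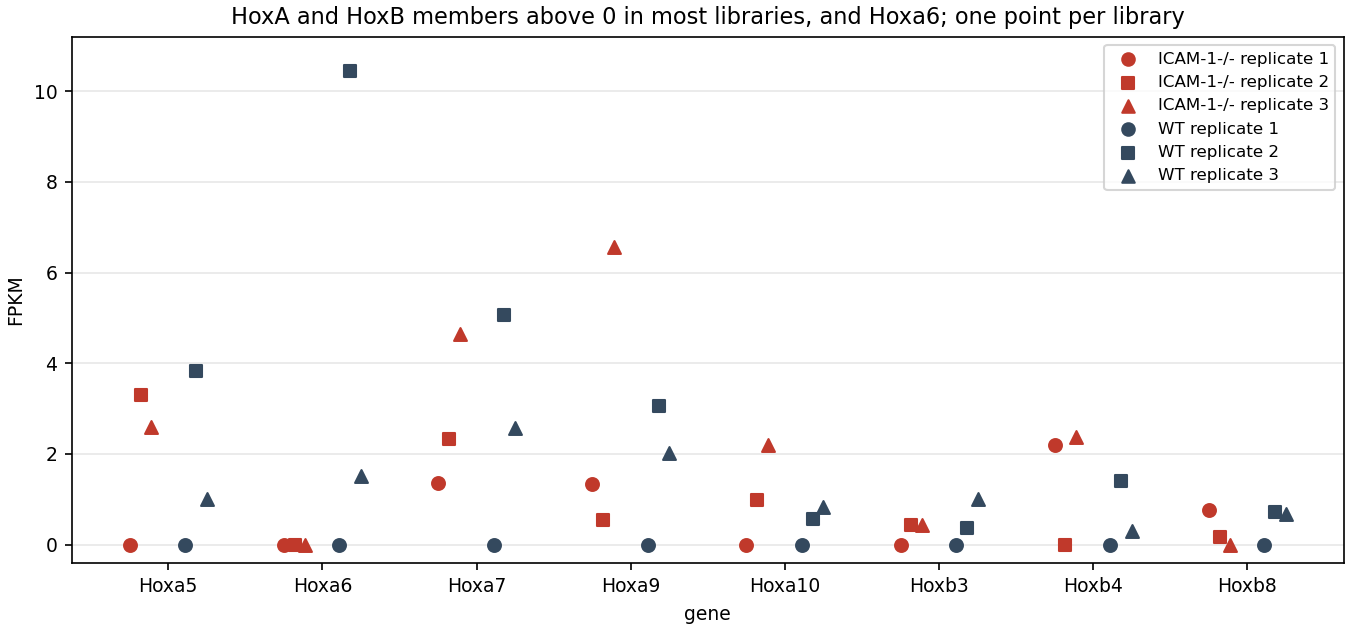
FPKM of the 7 Hox members that were above 0 in at least 4 of 6 libraries, and of Hoxa6, with 1 point per library, ICAM-1-/- in red left of WT in dark blue, and the marker shape giving the replicate number. Hoxa6 in WT replicate 2, at 10.5 FPKM, and Hoxa9 in ICAM-1-/- replicate 3, at 6.56 FPKM, are the highest points, and the groups overlap for all 8 genes.

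Among HoxB genes, Hoxb4, whose overexpression expands mouse stem cells, was the best detected. Its values were 2.19, 0 and 2.37 FPKM across ICAM-1-/- replicates 1 to 3, and 0, 1.40 and 0.309 FPKM in WT replicates 1 to 3. The 2 highest values were from ICAM-1-/- libraries, and each group had a library listed at 0. Hoxb8, which blocks myeloid differentiation in mouse progenitors when forced on, was at 0.755, 0.167 and 0 FPKM in ICAM-1-/- and at 0, 0.731 and 0.685 FPKM in WT replicates 1 to 3. Hoxb3, which acts with Hoxb4 in stem cell proliferation in mice, was at 0, 0.429 and 0.425 FPKM in ICAM-1-/- and at 0, 0.373 and 1.00 FPKM in WT replicates 1 to 3. Hoxb3 and Hoxb8 thus stayed at or under about 1 FPKM in every library, with overlapping groups.

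The remaining detected members were seen at trace level. Hoxa3 was at 0, 0 and 0.179 FPKM in ICAM-1-/- and at 0, 0.380 and 0.269 FPKM in WT replicates 1 to 3. Hoxb5, a marker of long-term stem cells in mice, was above 0 in ICAM-1-/- replicate 3, at 0.118 FPKM, and in WT replicate 3, at 0.352 FPKM. There were 8 members above 0 in a single library: Hoxa2, Hoxa13, Hoxb2 and Hoxc6 in ICAM-1-/- replicate 3, Hoxb1 and Hoxd1 in ICAM-1-/- replicate 2, and Hoxb7 and Hoxb9 in WT replicate 3, at 0.108 to 0.412 FPKM. By group, 9 members were above 0 in libraries of both, 6 in ICAM-1-/- libraries alone and 3 in WT libraries alone. WT replicate 1 had no Hox value above 0, and the same split over all genes was not counted. These counts are therefore not read as a group difference. Of the 6, each was seen in 1 library, and 4 of them in ICAM-1-/- replicate 3, the library with the most genes above 0. Hoxa6, Hoxb7 and Hoxb9 were the 3 seen in WT alone.

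No Hox member differed between donor cells from ICAM-1-/- and from WT recipients past the threshold. The 5 members with a mean of at least 1 FPKM, Hoxa5, Hoxa6, Hoxa7, Hoxa9 and Hoxb4, were tested with limma on log2(FPKM + 1) in a fit over 10477 genes, and none passed a Benjamini-Hochberg adjusted p of 0.05, in either direction. Nor did any of the 10477 genes (0% called), while 54 of them (0.515%) were under 0.05 before adjustment, none of them a Hox member. That share is far below the 0.05 that evenly spread p-values would give, and why was not tested. A fit blocked on replicate number called 13 genes (0.124%) and again no Hox member. For each of the 5 members the libraries of both recipients overlapped, while 4.08% of all tested genes had groups that did not. Of the 5 differences, 4 were positive and 1 was negative. The median was 0.35 over the 5 members and 0.08 over all tested genes, on the log2(FPKM + 1) scale. The other 34 members were under the minimum and were not tested.

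The intervals were wide for each of the 5. Hoxb4 had a difference of 0.59 ± 0.81 (SE), ICAM-1-/- minus WT, with a 95% interval of -1.19 to 2.37. Hoxa9 had 0.38 ± 0.95 (95% interval -1.71 to 2.48), Hoxa7 had 0.35 ± 0.95 (95% interval -1.75 to 2.44) and Hoxa5 had 0.22 ± 0.94 (95% interval -1.84 to 2.28). Intervals of this width do not separate an increase by 1 unit from a decrease by 1 unit. Hoxa6, listed at 0 in all ICAM-1-/- libraries, had a difference of -1.62 ± 0.93 (95% interval -3.66 to 0.43, unadjusted p = 0.109), whose size is set by the pseudocount and is not a fold. The adjusted p was 1.00 for each of the 5 in limma.

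WT replicate 1 carried much of the positive sign. Without it the differences were -0.32 for Hoxa5, -0.39 for Hoxa7, -0.22 for Hoxa9, 0.32 for Hoxb4 and -2.42 for Hoxa6, while the median of all tested genes was -0.16. Hoxa5 was also below 0 without ICAM-1-/- replicate 2 (-0.17) or ICAM-1-/- replicate 3 (-0.04), and Hoxa9 without ICAM-1-/- replicate 3 (-0.28). Within the 4 libraries of replicates 2 and 3, the differences were 0.34 for Hoxa5, -0.10 for Hoxa7, -0.036 for Hoxa9 and 0.05 for Hoxb4, where the median of all tested genes was -0.32. Hoxa10, over the minimum in these 4 libraries, had 0.57 ± 0.98 (SE, limma adjusted p = 1.00). Hoxa6 had -2.42 there, with an unadjusted p of 0.0167 and an adjusted p of 1.00 in limma. In that subset 18 of 10300 genes (0.175%) were called and none of them was a Hox gene.

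**Figure D3:**
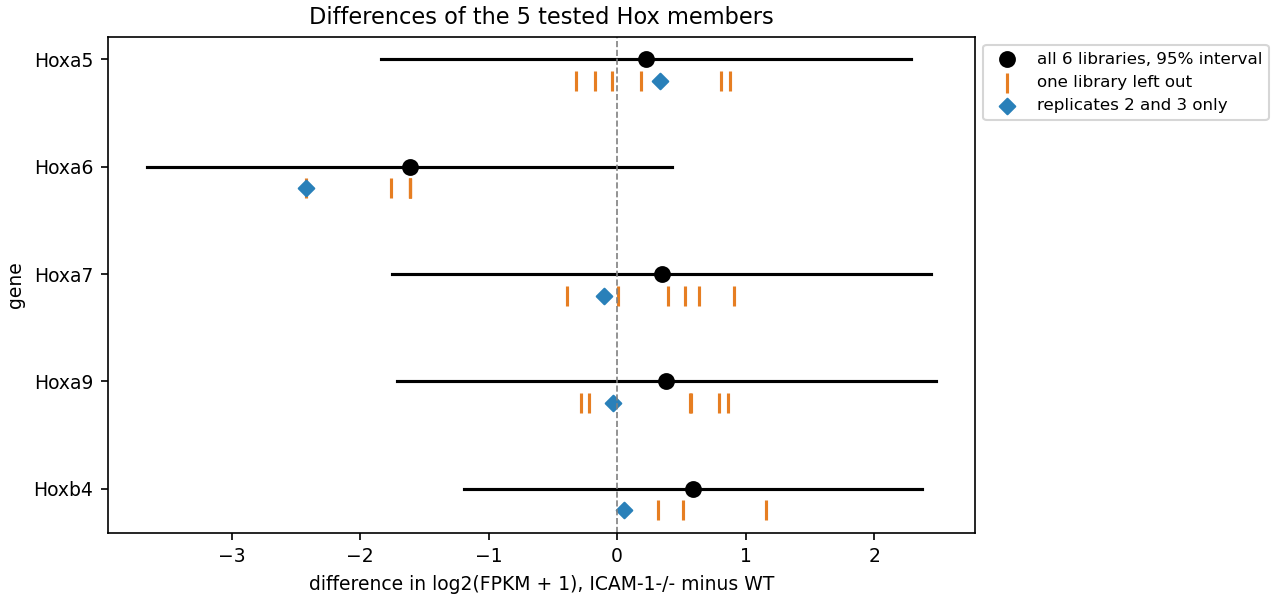
Difference in log2(FPKM + 1), ICAM-1-/- minus WT, of the 5 tested Hox members: black points with lines are the fit over all 6 libraries with its 95% interval, orange ticks are fits that leave out 1 library, and blue diamonds are fits on replicates 2 and 3. All 5 intervals cross 0, and the ticks of Hoxa5, Hoxa7 and Hoxa9 fall on both sides of it.

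A noncoding RNA gene of the HoxA cluster exceeded both coding genes beside it in 2 of 6 libraries. Mira, which RefSeq places between Hoxa6 and Hoxa7 and which has been linked to Hoxa6 and Hoxa7 activation in mouse embryonic stem cells, was noticed after its values were seen. It had 0, 1.46 and 19.8 FPKM in ICAM-1-/- libraries 1 to 3 and 0, 6.97 and 15.01 FPKM in WT replicates 1 to 3. In ICAM-1-/- replicate 3 and WT replicate 3 this exceeded every Hox gene, while Hoxa7 was higher in ICAM-1-/- replicates 1 and 2 and Hoxa6 in WT replicate 2. The difference of -0.44 ± 1.35 (SE) did not pass (limma adjusted p = 1.00), and it was 0.51 without ICAM-1-/- replicate 1 and 0.39 without WT replicate 3. Its 798 bases fall inside the annotated span of Hoxa7 in GENCODE M21, and how reads were shared between them was not tested. Of 20 other noncoding genes listed for the clusters and their edges, 11 had a row, and Hoxaas3 alone was above 0 in any library.

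The promoters of the detected HoxA run did not share one base composition. RefSeq (GRCm38.p6) windows of 300 bases, from 250 before to 50 after the annotated start, were found for 22 of the 39 members, 24 windows in all. The median number of CG dinucleotides was 14 in windows of members above 0 in some library and 15 in windows of members at 0 throughout, against 7 over all 32851 windows. The windows of 3 well detected neighbours are shown because they span that range, with CG in capitals, for Hoxa5 (chr6:52204538-52204837, minus strand), Hoxa7 (chr6:52218524-52218823, minus strand) and Hoxa9 (chr6:52227321-52227620, minus strand).
Hoxa5: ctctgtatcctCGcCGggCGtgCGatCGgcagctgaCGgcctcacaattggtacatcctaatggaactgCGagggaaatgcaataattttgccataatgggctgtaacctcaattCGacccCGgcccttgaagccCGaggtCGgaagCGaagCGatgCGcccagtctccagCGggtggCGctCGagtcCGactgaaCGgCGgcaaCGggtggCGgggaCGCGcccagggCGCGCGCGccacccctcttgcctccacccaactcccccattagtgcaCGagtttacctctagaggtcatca
Hoxa7: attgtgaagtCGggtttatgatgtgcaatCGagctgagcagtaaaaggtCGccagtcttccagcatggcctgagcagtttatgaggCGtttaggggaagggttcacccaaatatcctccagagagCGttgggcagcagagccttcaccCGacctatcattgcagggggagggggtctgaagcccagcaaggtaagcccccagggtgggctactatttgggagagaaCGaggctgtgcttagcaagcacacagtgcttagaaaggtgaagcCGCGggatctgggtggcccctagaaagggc
Hoxa9: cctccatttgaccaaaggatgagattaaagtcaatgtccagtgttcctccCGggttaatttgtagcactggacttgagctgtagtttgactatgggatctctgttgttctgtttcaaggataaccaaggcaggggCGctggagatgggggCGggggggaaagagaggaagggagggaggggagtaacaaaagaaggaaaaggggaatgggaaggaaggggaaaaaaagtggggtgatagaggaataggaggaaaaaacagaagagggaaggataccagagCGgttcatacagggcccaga
They hold 29, 9 and 4 CG dinucleotides. The window of Hoxb4, on chromosome 11, holds 14, and that of Hoxd13, listed at 0 in every library, holds 37. In these windows CG density therefore did not separate members above 0 in some library from those at 0 throughout. Some of the former were at trace level in a single library, and a listed 0 is not silence. The comparison thus cannot speak to active and silent promoters. It also sets mainly HoxA and HoxB windows against HoxD windows. Among windows of members at 0 throughout, only those of Hoxa11 and Hoxc4 were not from HoxD. Among the others, that of Hoxd1 alone was not from HoxA or HoxB.

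Short motifs gave no common feature of the members above 0 in some library either, with the same limits. The PBX-HOX composite TGATNNAT, searched on both strands, was found in 3 of 13 windows of members above 0 in some library and in 1 of 11 windows of members at 0 throughout, against 8.85% of all windows. The MEIS and PKNOX motif TGACAG was in 2 of 13 and 0 of 11 of these windows, against 19.2% of all. The CDX motif TTTATG, bound by the caudal factors that regulate Hox genes, was in 2 of 13 and 3 of 11, against 11.9% of all, and Hoxa7 was the one tested member with a match, at positions -236 and -173 from its start. The TATA box TATAAA was in 2 of 13 and 2 of 11, against 13.6% of all. No motif contains another, but TTTATG can run into TGATNNAT through shared letters. A match is not a measured site.

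The microRNA families miR-196 and miR-10 are encoded inside the clusters, and their seeds pair with Hox transcripts. Mir196b lies within the annotated span of Hoxa9, Mir196a-1 in HoxB, Mir196a-2 in HoxC, Mir10a in HoxB near Hoxb4 and Mir10b within the annotated spans of Hoxd3 and Hoxd4. Their rows were listed at 0 in all 6 libraries, in a library type not made for small RNAs. The mature RNAs are shown with the seed (bases 2 to 8) in capitals, since the sites that follow pair with it. Sequences are from RefSeq, GRCm38.p6.
miR-196b-5p: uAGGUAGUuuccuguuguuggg
miR-196a-5p: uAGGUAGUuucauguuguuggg
miR-10a-5p: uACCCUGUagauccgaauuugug
miR-10b-5p: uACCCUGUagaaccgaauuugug
The miR-196 seed match ACTACCT was found in the longest annotated 3′ UTR of 9 of 39 Hox genes (23.1%), against 6.10% of the 3′ UTRs of 21005 genes in GENCODE M21. Among these were Hoxa4, Hoxa5, Hoxa7, Hoxa9, Hoxb6, Hoxb7 and Hoxc8, of which Hoxa4, Hoxb6 and Hoxc8 were listed at 0 in every library. Hoxb8, a known miR-196 target in mouse through a site with a wobble pair, does not hold these letters. The miR-10 seed match ACAGGGT was in 4 of 39 (10.3%), among them Hoxa3 and Hoxb3, against 12.5% of all.

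Hoxa7, the member of highest median level, holds 4 miR-196 seed matches, the most of any member, and Hoxa5 and Hoxa9 hold 1 each. These 28-base stretches of the UTR are shown with the match in capitals, named by the position of its first base in the UTR.
Hoxa7 at 310: aggcacagccaaaatACTACCTagcaca
Hoxa7 at 347: gagaggcactcccaaACTACCTatgggc
Hoxa7 at 479: caaaccatgatcaatACTACCTactact
Hoxa7 at 500: tactactagccctaaACTACCTattgtg
Hoxa5 at 456: gatatttttattcaaACTACCTatattc
Hoxa9 at 337: gcaaaaggaaagaaaACTACCTttttat
All 4 matches in Hoxa7 and the one in Hoxa5 are followed by an A, the letter opposite the first base of the microRNA, and the match in Hoxa9 is followed by a T. These are letter matches in the annotation, and no microRNA was measured.

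Among the partners of Hox proteins, Meis1 stood above every single Hox gene in each library. The list of 11 TALE genes also holds Tgif1 and Tgif2, which are not among the MEIS, PBX and PKNOX partners. Of the 11, 6 had a mean of at least 1 FPKM, Tgif1 and Tgif2 among them. None passed the test in either direction, with 4 positive and 2 negative differences (median 0.98, against 0.08 over all tested genes). Meis1, the leukemia partner of Hoxa9, had 5.44, 31.0 and 23.7 FPKM in ICAM-1-/- and 24.9, 17.0 and 16.6 FPKM in WT replicates 1 to 3, with overlapping groups and a difference of -0.23 ± 0.82 (SE), which was 0.48 without ICAM-1-/- replicate 1. It was thus well above 0 in WT replicate 1, where every Hox gene was listed at 0. The 4 TALE genes of smallest p, Tgif1, Tgif2, Pbx2 and Pknox1, were listed at 0 in that library and had differences of 1.37 ± 1.09, 0.97 ± 0.97, 1.06 ± 1.12 and 0.98 ± 1.06. Without it these were 0.19 for Tgif1, 0.15 for Tgif2, -0.22 for Pbx2 and -0.043 for Pknox1.

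The ratio of Hox to Meis1 levels varied widely between libraries. The summed Hox level was 1.04, 0.265 and 0.853 of the Meis1 level in ICAM-1-/- replicates 1 to 3, and 0, 1.52 and 0.661 of it in WT replicates 1 to 3. Hoxa9 alone was 0.245, 0.0174 and 0.276 of Meis1 in ICAM-1-/- and 0, 0.179 and 0.122 of it in WT replicates 1 to 3. Both ratios overlapped between the groups. ICAM-1-/- replicate 2 had the highest Meis1 level and, among libraries with any Hox signal, the lowest ratio.

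**Figure D4:**
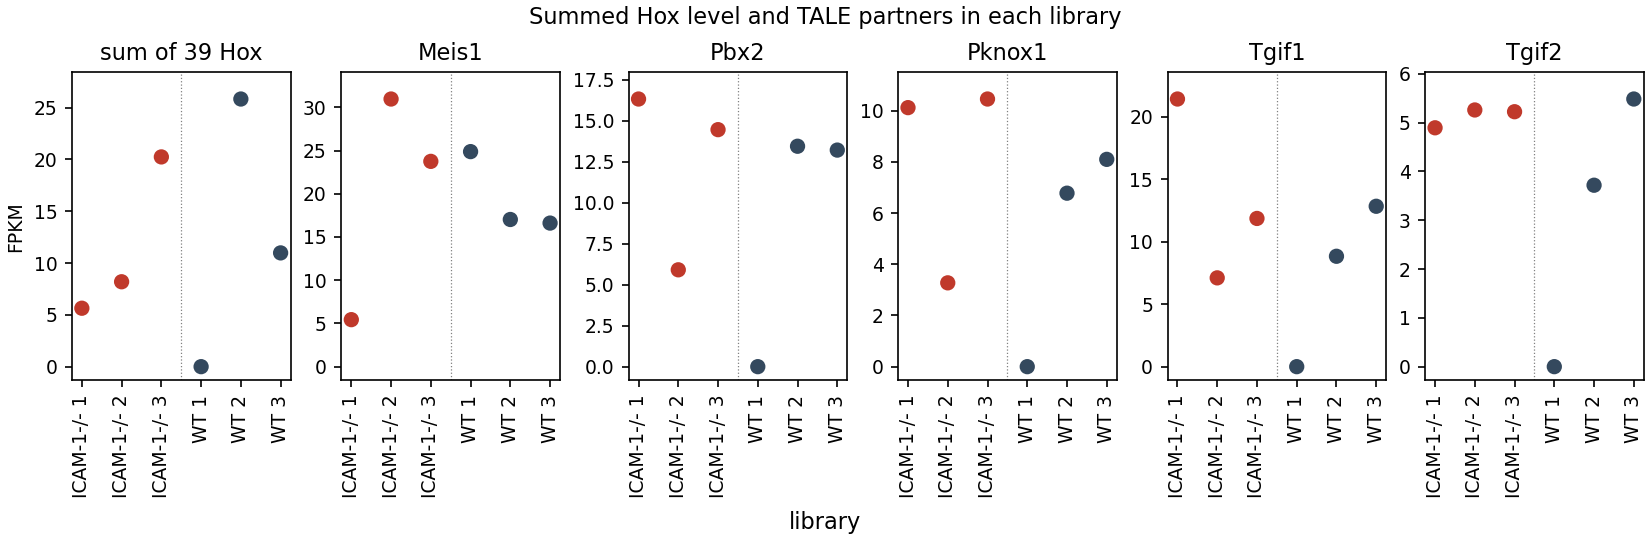
FPKM in each library of the sum over the 39 Hox members and of 5 TALE genes, Tgif1 and Tgif2 among them. ICAM-1-/- libraries are in red on the left and WT libraries in dark blue on the right of each panel. Each panel has its own linear axis. WT replicate 1 is at 0 for the Hox sum and for Pbx2, Pknox1, Tgif1 and Tgif2, but at 24.9 FPKM for Meis1.

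Regulators of the clusters gave no call. Of 21 trithorax-side and other Hox regulators, 20 had a row and 17 were tested, none passing in either direction, with 6 positive and 11 negative differences (median -0.20). The MLL1 gene Kmt2a, listed as Mll1, was at 9.51, 0.934 and 7.16 FPKM in ICAM-1-/- and at 7.34, 6.77 and 4.44 FPKM in WT replicates 1 to 3. Its level in WT replicate 1 lay within the range of the other libraries. In WT replicate 1, 16 of the 20 regulators with a row were above 0, against 17 or 18 in each other library. The 4 regulators of smallest p were Dpy30, a subunit shared by the MLL family complexes, Psip1, which tethers MLL1 to chromatin, Nup98, a nucleoporin found in leukemic fusions, and Mllt10, a partner of the methyltransferase Dot1l, with differences of 0.89 ± 0.70, -0.98 ± 0.86, 1.24 ± 1.14 and -0.77 ± 0.87 (SE). Nup98 was listed at 0 in WT replicate 1, and without that library its difference was 0.024. Without ICAM-1-/- replicate 2 the differences of Dpy30, Psip1 and Mllt10 were 0.49, -0.37 and -0.31. Dpy30 was at 37.1, 98.9 and 48.6 FPKM in ICAM-1-/- and at 31.8, 25.4 and 33.3 FPKM in WT replicates 1 to 3. Its ICAM-1-/- values all lay above the WT values, as was so in the higher direction for 3.23% of all tested genes. The caudal genes Cdx1 and Cdx2 were listed at 0 in every library, and Cdx4 was at 0.133 FPKM in ICAM-1-/- replicate 3 alone.

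Of 23 Polycomb-side genes, 22 were tested and none passed in either direction, with 8 positive and 14 negative differences (median -0.18). Cbx7, a chromobox subunit that favours self-renewal of mouse stem cells, had the smallest p of them, with 0.0191, 0.769 and 1.84 FPKM in ICAM-1-/- and 1.95, 2.71 and 4.26 FPKM in WT replicates 1 to 3 and a difference of -1.16 ± 0.82 (limma adjusted p = 1.00). Cbx7 and Cbx2, another chromobox gene, had all ICAM-1-/- values below the WT values, as was so in the lower direction for 0.849% of all tested genes. Cbx2 was at 5.96, 0.656 and 6.12 FPKM in ICAM-1-/- and at 6.23, 7.48 and 6.49 FPKM in WT replicates 1 to 3. Outside ICAM-1-/- replicate 2 its separation was thus narrow, and its unadjusted p in limma was 0.387. Eed, a core subunit of the repressive methyltransferase complex, Ring1, a ubiquitin ligase, and Suz12, another core subunit, followed Cbx7 by p. Their differences were 1.27 ± 1.09, -1.04 ± 1.01 and -0.82 ± 0.86. Eed was listed at 0 in WT replicate 1 and had 0.26 without it, and without ICAM-1-/- replicate 2 Ring1 had -0.18 and Suz12 -0.12. In WT replicate 1, 15 of the 23 Polycomb-side genes were above 0, against 22 or 23 in each other library.

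Some genes just outside the clusters had higher FPKM than any Hox gene inside. Skap2, an adaptor protein gene next to HoxA, had 36.7, 22.9 and 59.7 FPKM in ICAM-1-/- and 22.7, 50.7 and 29.7 FPKM in WT replicates 1 to 3, above every Hox value in the same library, and it was present in WT replicate 1. Not all neighbours were: 9 of the 17 with a row were above 0 in WT replicate 1, against 12 or 13 in each other library. Of all tested genes, 39.6% were listed at 0 in WT replicate 1, so its Hox zeros are not particular to the clusters. Evx1 and Evx2, the homeobox genes at the far ends of HoxA and HoxD, were listed at 0 in all libraries. Of 18 neighbouring genes, 17 had a row and 12 were tested, none passing in either direction, with 6 positive and 6 negative differences (median -0.01). Mtx2, a mitochondrial import gene beside HoxD, and Cbx1, a heterochromatin protein gene beside HoxB, had the smallest p, with 1.90 ± 1.14 and -1.51 ± 0.93. Mtx2 was listed at 0 in WT replicate 1 and had 0.74 without it, and Cbx1 had -0.67 without ICAM-1-/- replicate 2. They were followed by Tax1bp1, an autophagy receptor gene, and Calcoco1, a coiled-coil coactivator gene, with -1.23 ± 0.86 and -1.13 ± 0.90. Tax1bp1 had -0.40 within replicates 2 and 3, and Calcoco1 had -0.58 without ICAM-1-/- replicate 2.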

How the data were processed

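Total RNA came from sorted donor LSK cells by Trizol, and libraries from an Illumina TruSeq RNA kit, per the labels. The authors deposited gene-level FPKM, with a column for each library. The tools listed by the submitters' processing notes are cutadapt, TopHat2 2.0.11 and Cufflinks 2.1.1; build, annotation and filters were not given in the sources used here. Each library held 24 to 111 positive values under 0.001 FPKM, too small for whole reads, so no counts were rebuilt and read depth is not known.

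Genes averaging at least 1 FPKM (10477) entered limma 3.58.1 in R 4.3.3 as log2(FPKM + 1), with group as the only term, a trend on the variance and Benjamini-Hochberg adjustment over all of them at 0.05. The fit was run on simulated data with independent normal noise for each gene. Those data held no listed zeros or shifts of whole libraries, so they do not show how the p-values behave here. Whether libraries came from single or pooled recipients is not stated, so p-values measure the spread between these libraries. Same-numbered libraries had correlated deviations from their group means (0.35, 0.13 and 0.31, all over 0.1). On that evidence alone, numbers were taken as pairs in the alternative fit with a replicate block. The main fit, which gave the differences and intervals above, was not paired. Differently numbered pairs reached as much, 0.31 for ICAM-1-/- replicate 3 with WT replicate 2 and 0.15 for ICAM-1-/- replicate 2 with WT replicate 3.

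Members and gene lists were chosen with earlier results of these data known. Named were the Hox members (a few genes are not reported here by name), up to 4 genes of smallest p per partner or regulator list, and Meis1; Mira, Skap2, Kmt2a, Hoxaas3, Cbx2, the Evx and Cdx genes were named after their values were seen. Symbols were matched through RefSeq, and Kmt2d, Prac1 and Ly6g had no unambiguous row. Of 9 mature lineage markers, 8 matched and summed to 4.25, 27.2 and 32.8 FPKM in ICAM-1-/- and 0.0256, 64.1 and 35.0 FPKM in WT replicates 1 to 3. Alternatives were pseudocounts of 0.1 and 0.5, no filter, median-of-ratios scaling, values under 0.001 FPKM as missing, the block, replicates 2 and 3 alone, and each library left out.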

Additional observations from a re-analysis of the deposited data

How the results depend on the processing

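No Hox member passed an adjusted p of 0.05 under any of the 13 alternatives. The number of all genes called moved from 0 to 13 with the replicate number as a block (278 at an unadjusted p under 0.05) and to 18 within replicates 2 and 3, and ranged from 0 to 2 when 1 library was left out. The replicate block changed no Hox call. The difference of Hoxa7 was -0.10 and that of Hoxa9 -0.036 within replicates 2 and 3. With 1 library left out, differences ranged from -0.32 to 0.88 for Hoxa5, from -0.39 to 0.91 for Hoxa7 and from -0.28 to 0.87 for Hoxa9; the cause was not tested beyond the libraries named above. Hoxa6 (-2.42 to -1.62) and Hoxb4 (0.32 to 1.16, highest without ICAM-1-/- replicate 2) kept their sign wherever they were tested. This is no measure of stability. The sign of Hoxa6 could not change, since it was listed at 0 in every ICAM-1-/- library. For Hoxb4 the fits without either of its ICAM-1-/- libraries above 0 are missing. Hoxa6 had no value without WT replicate 2, and Hoxb4 none without ICAM-1-/- replicate 1, ICAM-1-/- replicate 3 or WT replicate 2 or under median-of-ratios scaling, since their means fell under the filter. With a pseudocount of 0.1 Hoxa6 moved to -3.58 and the Hox median to 1.06; that median ranged from -0.32 to 0.81 with 1 library left out. Median-of-ratios scaling moved the median of all genes to 0.25 and that of 4 tested Hox members to 0.44, and without a filter 18 members were tested, with a median of 0.09. All Hox members lie at low FPKM, and with the depth unknown no limit of detection can be given.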
